A study of Mus musculus with 2 samples.

Results

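The cells described here are CD8 T cells from mouse melanoma tumours that carried transcripts of both Pdcd1 (PD-1) and Havcr2 (TIM-3) and no Xcl1 transcript. Of 16969 barcodes in the deposited matrix, 361 met this definition. They had at least 500 genes, at most 10% mitochondrial UMIs (molecular barcodes that count captured RNA molecules once) and 1 hashtag with at least 80% of the hashtag UMIs. They also had at least 1 UMI of Cd8a or Cd8b1, no UMI of Cd4, Foxp3, Mki67, Top2a or Xcl1, and at least 1 UMI each of Pdcd1 and Havcr2. The cells were thus selected on the counts of these 9 genes, which are described and not tested. They were compared within each mouse with the 573 cells that met every other condition but had no Havcr2 UMI, called Havcr2-negative cells below.

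Single-cell RNA sequencing had been run on T cells of melanoma tumours in C57BL/6J mice that were given the bacterium Lactobacillus reuteri (hashtags named LR, 4 mice: 1 to 4) or PBS (4 mice: 6 to 9). After enrichment for CD90.2, each tumour's cells received their own hashtag antibody, and the sort took 8000 live CD8+ cells from every mouse; other labels call the cells CD3+ T cells. Cells of a condition were pooled after sorting and all went onto 1 lane of a Chromium 5′ v2 run, and treatment and later handling cannot be told apart. Age, tumour line and treatment schedule are not given here.

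PD-1 and TIM-3 are inhibitory receptors that T cells display under lasting antigen exposure. Tumour CD8 T cells that carry PD-1 alone include stem-like progenitors, which keep the transcription factor TCF1 (Tcf7) and the interleukin 7 receptor. Cells with both receptors are usually described as terminally differentiated or exhausted, with high cytotoxic gene expression and little Tcf7, and they often descend from few expanded clones. Xcl1 encodes lymphotactin, a chemokine that attracts cross-presenting dendritic cells. In the GENCODE M21 annotation of GRCm38, the protein-coding genes Havcr2 and Tcf7 lie at chr11:46454935-46481255 and chr11:52252371-52283014, Pdcd1 and Xcl1 at chr1:94038305-94052553 and chr1:164931644-164935527, Lag3 at chr6:124904361-124911705, Entpd1 at chr19:40612366-40741602, Prf1 at chr10:61297833-61304680 and Il7r at chr15:9505788-9530176.

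The cells came from all 8 mice, with 53, 55, 20 and 91 cells in LR mice 1, 2, 3 and 4, and 36, 8, 39 and 59 in PBS mice 6, 7, 8 and 9. PBS mouse 7 had fewer than the 10 cells required for summed counts, so that gene tests rest on 7 mice. The cells made up 5.89%, 13.1%, 10.6% and 26.0% of all CD8 gate cells (the same gate before Pdcd1, Havcr2 and Xcl1 were read, 5096 cells) in the LR mice and 13.1%, 0.667%, 6.38% and 5.13% in the PBS mice. The highest share was in LR mouse 4 and the lowest in PBS mouse 7, and the remaining 6 mice overlapped between the treatments. Mean shares were 13.9% ± 8.60 (SD, n = 4) in LR and 6.32% ± 5.14 (SD, n = 4) in PBS mice. The difference of 7.58 percentage points did not exceed the spread between mice (two-sided exact permutation test p = 0.229; the smallest p that 4 against 4 mice allow is 0.0286), and it was 3.55 without LR mouse 4.

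As a share of Pdcd1-positive, Xcl1-negative gate cells (934 cells), Havcr2-positive cells made up 36.1%, 44.7%, 40.8% and 56.5% in LR mice and 46.2%, 11.9%, 38.2% and 28.5% in PBS mice. The means were 44.5% ± 8.75 (SD, n = 4) and 31.2% ± 14.7 (SD, n = 4), a difference of 13.3 points (two-sided exact permutation test p = 0.2). Without PBS mouse 7 the difference was 6.90 points. PBS mice 6 and 8 lay inside the range of the LR mice.

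**Figure D1:**
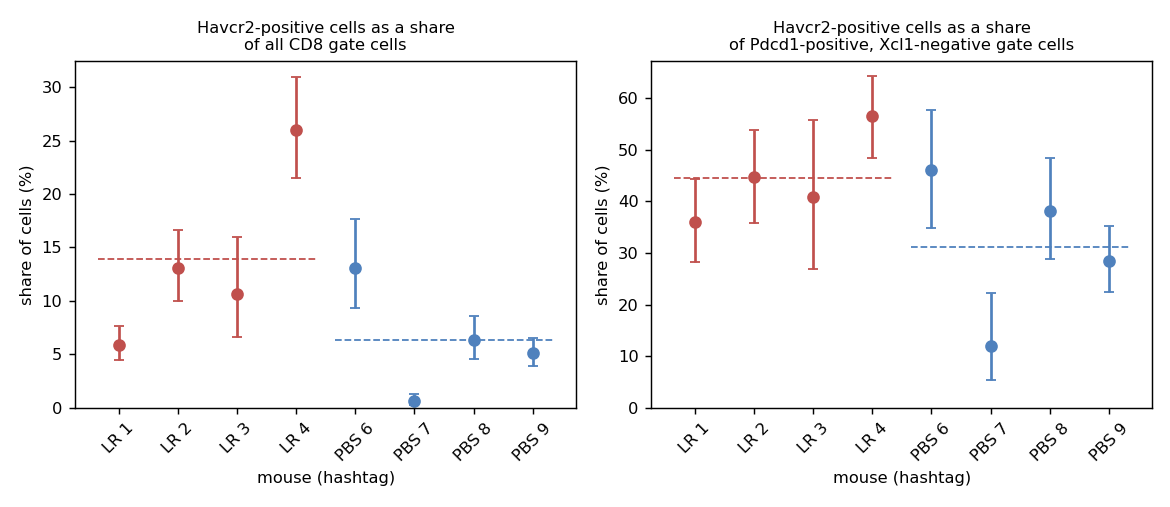
Share of Pdcd1- and Havcr2-positive, Xcl1-negative cells in each mouse (LR in red, PBS in blue), in percent of all CD8 gate cells (left) and of Pdcd1-positive, Xcl1-negative gate cells (right). Bars are exact 95% binomial intervals, which cover counting error only, and dashed lines are the means of 4 mice; the treatments overlap in both panels.

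Detection of Havcr2 exceeded background. In gate cells with Lef1 and Ccr7 UMIs and no Pdcd1 UMI, which resemble naive cells, 19 of 2002 (0.949%, exact 95% interval 0.572 to 1.48) had a Havcr2 UMI at a median of 3690.5 UMIs per cell. Among Pdcd1-positive, Xcl1-negative cells 361 of 934 (38.7%) had one, at a median of 4349 UMIs. With every cell thinned to 2000 UMIs the shares were 0.534% and 19.9%.

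Detection also followed depth. Havcr2-positive cells had medians of 4852.5 to 10437 UMIs per mouse and Havcr2-negative cells 3357.5 to 4274, and the former were deeper in each of the 8 mice. The comparison of the 2 sets was therefore repeated with cells matched on UMIs.

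Around the Havcr2 threshold, transcripts of some genes graded from 0 UMIs (573 cells) to 1 UMI (181 cells) to 2 or more (180 cells). Median depth rose as well, with 3699, 5237 and 6803.5 UMIs per cell. Pooled over mice, Tcf7 was at 283, 45.3 and 26.8 CPM (UMIs per 1000000 gene UMIs) in these classes, and Prf1 at 130, 274 and 657 CPM. Lag3 was at 219, 450 and 491 CPM. Other genes did not grade: Ifng was at 163, 331 and 305 CPM, Tox at 153, 245 and 218 CPM and Tigit at 477, 786 and 735 CPM. Entpd1 was at 53.4, 98.6 and 102 CPM. In these pooled values mice with more cells weigh more. Havcr2 itself, which defines the classes, was at 0, 182 and 449 CPM. Cells with 1 Havcr2 UMI therefore lay nearer to cells with 2 or more than to cells with 0 for Tcf7 and Lag3, whereas for Prf1 they lay nearer to cells with 0.

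The cells carried T cell transcripts: Cd3e was detected in 99.2%, Cd3d in 96.7% and the receptor alpha constant gene Trac in 75.6%. Markers of other cell types were scarce. The natural killer list summed to 154 to 252 CPM over the 7 mice (147 to 272 in Havcr2-negative cells of 8 mice), with Ncr1, Klra4, Klra7 and Klra8 at 0. The myeloid list summed to 243 to 506 CPM, with C1qa, C1qb and Csf1r at 0, against 249 to 3102 CPM in Havcr2-negative cells. The value of 3102 was that of LR mouse 4, where the antigen presentation gene Cd74 alone gave 1853 CPM; its part in the comparisons with this mouse's Havcr2-negative cells was not tested beyond the fit without the mouse, which called 566 genes against 560.

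The remaining lists were low or shared with CD8 T cells. B cell markers summed to 8.04 to 54.1 CPM with Cd79a, Ms4a1 and Iglc2 at 0. Gamma delta T cell markers summed to 17.1 to 102 CPM, melanoma and stroma markers to 0 to 18.8 CPM and erythroid markers to 0 to 1.61 CPM. The regulatory and CD4 T cell list, which holds Ctla4, Tnfrsf4 and other genes that activated CD8 cells also express, summed to 799 to 1437 CPM against 372 to 1143 CPM in Havcr2-negative cells. Its part in the results was not tested.

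The label's other 3 markers, chosen with values of these data known, were found together in many of the cells. Lag3, an inhibitory receptor for MHC class II, had a UMI in 78.9% of Havcr2-positive cells (66.1% to 89.0% over 8 mice) and in 39.3% of Havcr2-negative cells. Entpd1, the ectoenzyme CD39 that breaks down extracellular ATP, had one in 47.6% and 15.9%. The pore-forming protein gene Prf1 had one in 65.1% and 23.6%. All 3 were found in 28.3% of Havcr2-positive cells against 6.28% of Havcr2-negative cells, and none of them in 6.65% against 49.7%.

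Background and depth bear on these shares. In the naive-type cells Lag3 was detected in 3.45%, Entpd1 in 0.749% and Prf1 in 11.1%. At 2000 UMIs per cell, which left out 20 Havcr2-positive and 80 Havcr2-negative cells, Lag3 was detected in 53.1% against 27.2%, Entpd1 in 17.6% against 8.32% and Prf1 in 35.5% against 15.2%. The direction of each difference was the same as without thinning.

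For tests, UMIs were summed per mouse and cell set and compared within mice with edgeR's quasi-likelihood test, with Benjamini-Hochberg adjustment over 4213 genes. At an adjusted p of 0.05 or less, 261 genes (6.2% of those tested) rose and 299 (7.1%) fell in Havcr2-positive cells, 560 in all (13.3%), and 1092 had an unadjusted p under 0.05. The median log2 ratio of all genes was -0.00. When the 2 sets were matched on UMIs per cell (287 cells each), 269 genes were called, 246 of them also among the 560; matching also removed cells, so that depth and cell number cannot be told apart in this drop. Without cells that had a Lef1 or Ccr7 UMI, 184 were called.

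The gene lists, marker lists included, held 80 of the called genes. With matched UMIs 52 of the 69 that were tested were called, and all 69 kept their sign. Those not called then included Ltb (log2 ratio -0.09), Bcl2 (-0.25), Pde7a (-0.27), Hsp90ab1 (0.19), S1pr4 (-0.60), Tnfrsf18 (0.40), the glycolysis genes Ldha (0.32) and Tpi1 (0.27) and the respiratory chain genes Sdhb (0.23) and Uqcrq (0.31). Without Lef1 or Ccr7 cells 39 of 64 were called, again with no change of sign. Lost there were, among others, Tigit (0.07), Lilrb4a (0.36), Cd200r1 (0.40), Nkg7 (0.13), Gzmk (0.32), Ccl3 (0.33), Cxcr6 (0.17), Cd69 (-0.56), Pde4b (-0.35) and Ier2 (-0.19). DESeq2 called 55 of the 80 and the fit without the mouse block 54.

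Inhibitory receptors and ectoenzymes were higher in Havcr2-positive cells: 7 of 12 tested members rose and none fell, with a median log2 ratio of 0.58 that was above 0 in 7 of 7 mice (0.18 to 0.96). Lag3 was at 303 CPM in the lowest mouse, 454 in the median and 577 in the highest, against 133, 214 and 411 in Havcr2-negative cells (log2 ratio 0.91 ± 0.13 SE, n = 7 mice, edgeR adjusted p = 1.57e-05). It was higher in 6 of 7 mice, and in PBS mouse 6 it was 303 against 323 CPM. Entpd1 was at 80.7, 92.8 and 136 CPM against 29.9, 56.0 and 108 CPM (log2 ratio 0.73 ± 0.18, edgeR adjusted p = 0.00535). PBS mouse 6 was again the exception, with 80.7 against 108 CPM, and the call of Entpd1 was lost with DESeq2 (log2 ratio 0.76), without Lef1 or Ccr7 cells (0.45) and among cells outside the leading receptor beta segment of their mouse (0.65) or with it (0.18).

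Other receptors of this list rose in every mouse. Lilrb4a, an inhibitory immunoglobulin-like receptor, was at 90.1, 146 and 185 CPM (lowest, median and highest mouse) against 42.1, 71.7 and 125 CPM, a log2 ratio of 0.90 (edgeR adjusted p = 0.000199). Cd200r1, the receptor for CD200, was at 90.7, 101 and 151 CPM against 40.2, 59.6 and 124 CPM (0.77, edgeR adjusted p = 0.00157), and Pglyrp1, a secreted peptidoglycan recognition protein, had a log2 ratio of 0.69. Ranges overlapped between the sets for each of these genes. Cd244a, a receptor of the SLAM family (1.00), and Tigit, a receptor for CD155 (0.47), were the other called members, each higher in 6 of 7 mice. Among cells without a Lef1 or Ccr7 UMI, 2 of 10 tested members of the list were called, against 6 of 11 with matched UMIs.

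Cytotoxic genes did not move as a block: 4 of 11 tested members rose and 1 fell, with a median log2 ratio of 0.20. Prf1 was at 224, 411 and 846 CPM (lowest, median and highest mouse) in Havcr2-positive cells and at 81.1, 100 and 707 CPM in Havcr2-negative cells (log2 ratio 1.5 ± 0.24, n = 7 mice, edgeR adjusted p = 5.51e-05). It was higher in 6 of 7 mice and called under each of 20 alternatives (1.22 to 2.34); LR mouse 3, with 423 against 707 CPM, went the other way. Gzmb, which encodes the protease granzyme B, was at 731, 958 and 1887 CPM against 303, 570 and 1176 CPM (1.02 ± 0.13, edgeR adjusted p = 3.31e-06), again with LR mouse 3 as the exception. Nkg7, a granule membrane protein gene, was at 3205, 3688 and 3800 CPM against 2590, 2766 and 3085 CPM, and the sets did not overlap (log2 ratio 0.38, edgeR adjusted p = 1.42e-06); its call was lost without Lef1 or Ccr7 cells (0.13) and within the leading beta segment (0.0066). The fourth was Gzmk, which encodes granzyme K (0.48, higher in 6 of 7 mice).

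The member that fell was Lamp1, a lysosome and granule membrane protein whose surface form marks degranulation. It was at 37.8, 60.1 and 68.4 CPM in Havcr2-positive and 75.3, 109 and 132 CPM in Havcr2-negative cells (log2 ratio -0.92, edgeR adjusted p = 0.000137). It was lower in all 7 mice, and the sets did not overlap.

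Of 8 tested cytokines and chemokines, 3 rose and 1 fell. Ccl4, a chemokine that attracts T cells and myeloid cells, was at 1250, 2128 and 3882 CPM against 469, 683 and 1736 CPM (log2 ratio 1.22 ± 0.20, edgeR adjusted p = 8.22e-05), and was lower in Havcr2-positive cells in LR mouse 1 only. Its relative Ccl3 had a log2 ratio of 0.87 and was lower in LR mouse 2 only; it was not called with DESeq2 (0.92), with stricter hashtags (0.43), without Lef1 or Ccr7 cells (0.33) or within the leading beta segment (0.77). Ifng, the gene of interferon gamma, rose in 7 of 7 mice, from 97.5, 171 and 280 CPM to 277, 317 and 379 CPM (log2 ratio 0.79 ± 0.14, edgeR adjusted p = 0.000162). The member that fell was Ltb, lymphotoxin beta, with a log2 ratio of -0.28. Among 8 costimulatory receptors 3 rose, led by Tnfrsf9 (4-1BB, log2 ratio 1.19 ± 0.21) and Tnfrsf4 (OX40, 0.94) and with Tnfrsf18 (GITR, 0.39). Tnfrsf9 was lower in LR mouse 3, with 234 against 499 CPM.

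Of 18 progenitor and memory genes 13 were tested, of which 12 fell and none rose (median log2 ratio -2.31; -2.49 to -1.58 over 7 mice). Il7r, the interleukin 7 receptor, was at 19.2, 28.8 and 59.3 CPM in the lowest, median and highest mouse, against 243, 280 and 562 CPM (log2 ratio -3.32 ± 0.15, n = 7 mice, edgeR adjusted p = 2.36e-15). Tcf7 was at 8.01, 37.8 and 62.8 CPM against 79.1, 208 and 349 CPM (-2.59 ± 0.16, edgeR adjusted p = 6.09e-12). Neither gene's ranges overlapped, and both stayed called in the 19 alternatives in which they were tested (Il7r -3.69 to -2.88, Tcf7 -2.96 to -2.01). The fit among cells with the leading beta segment of their mouse did not test them.

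Other members of this list fell with them. The egress receptor gene S1pr1 (-2.80) and its activator Klf2 (-2.31), the transcription factor gene Klf3 (-3.08), the chemokine receptor gene Ccr7 (-2.31) and the TCF1 partner gene Lef1 (-1.98) were each lower in 7 of 7 mice. Slamf6, a surface marker of progenitors, had a smaller log2 ratio of -1.12, and Bcl2, a survival gene, of -0.52. Cd55 was the member that did not pass the threshold (0.44).

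Cells with Lef1 and Ccr7 UMIs made up 21.5% of Havcr2-negative and 2.77% of Havcr2-positive cells. With cells that had either UMI removed from both sets, 5 progenitor genes were tested and 4 fell, with a median log2 ratio of -1.94. Within Havcr2-positive cells Tcf7 was found in 14.1% (5.49% to 25.4% over 8 mice), against 50.1% of Havcr2-negative cells. Thinned to 2000 UMIs the shares were 6.16% and 37.1%. Tcf7 without Entpd1 was found in 8.86% and 47.1%, and Tcf7 with Entpd1 in 5.26% and 2.97%.

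**Figure D2:**
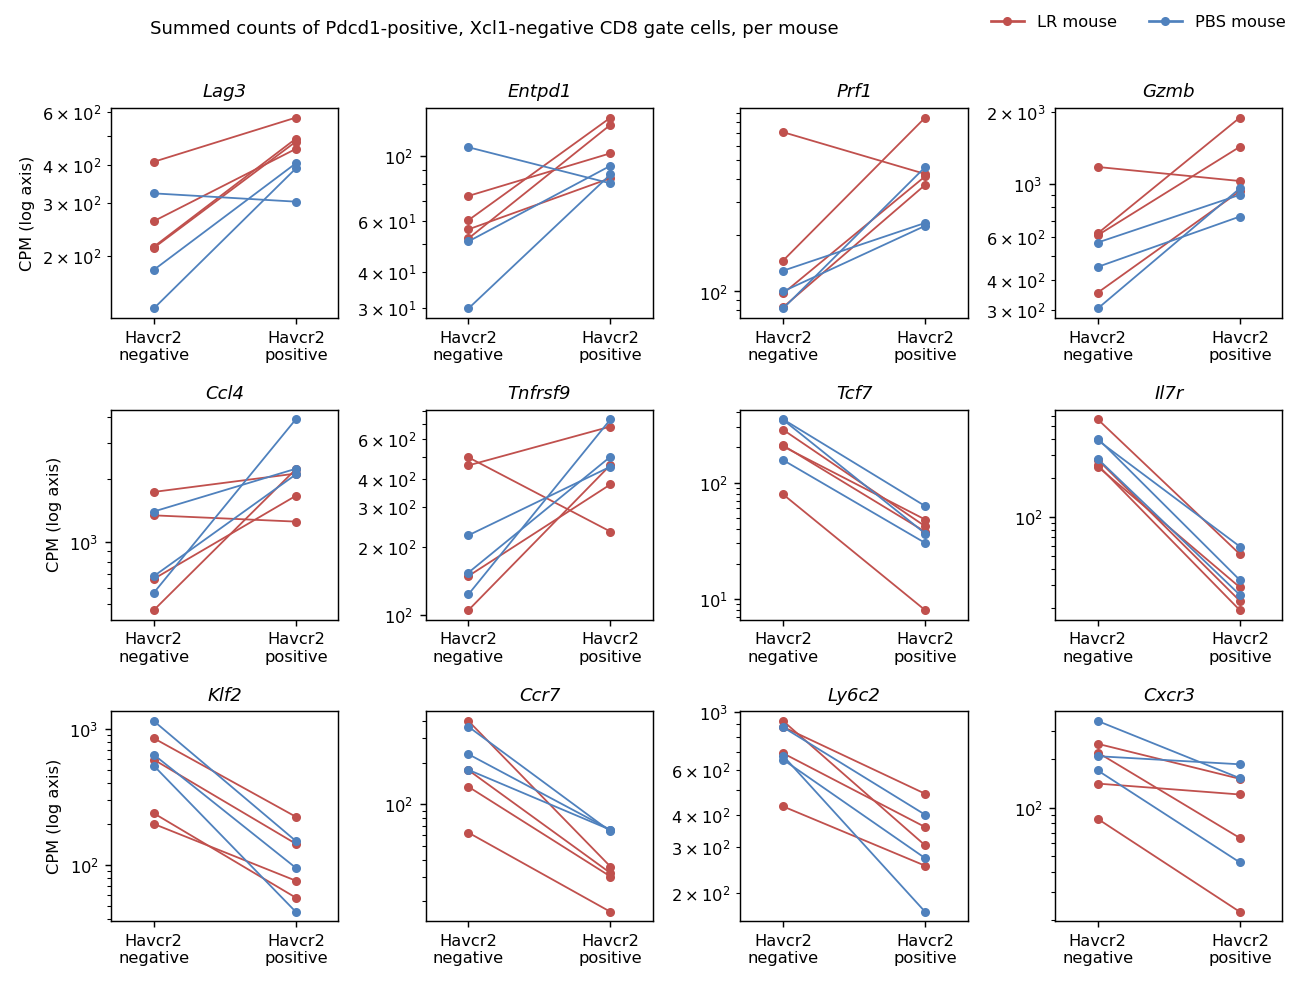
CPM (log axis) of 12 genes in the summed Havcr2-negative and Havcr2-positive cells of each of 7 mice, with lines joining the 2 sets of a mouse (LR in red, PBS in blue). Il7r and Tcf7 fall in every mouse without overlap of the sets, while Lag3, Entpd1, Prf1, Gzmb, Ccl4 and Tnfrsf9 rise in 6 of 7 mice.

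Transcription factors linked to exhaustion and effector function were less uniform. Of 21 listed, 13 were tested, 7 rose and none fell (median log2 ratio 0.37). Irf8, an interferon regulatory factor gene, was at 92.8, 110 and 283 CPM in the lowest, median and highest mouse against 24.6, 81.1 and 143 CPM (1.05 ± 0.17, edgeR adjusted p = 6.44e-05) and was higher in each of 7 mice. Rbpj, the DNA-binding partner of Notch, and Bhlhe40 had log2 ratios of 0.86 and 0.65, both higher in 7 of 7 mice, and Nr4a2 and Nfatc1, which respond to receptor signalling, of 0.49 and 0.37. Nr4a2 was not called with DESeq2 (0.50) or without the mouse block (0.49), among others, and Nfatc1 was called in 9 of 20 alternatives (-0.020 to 0.52). Tox, a driver of the exhaustion program, was at 191, 237 and 287 CPM against 94.8, 181 and 271 CPM (0.48 ± 0.14, edgeR adjusted p = 0.0234) and was called in 11 of 20 alternatives (0.11 to 0.66). Prdm1, which encodes BLIMP-1, had a log2 ratio of 0.81 ± 0.23 and was called in 12 of 17 alternatives, so the calls of these 4 genes depend on the setting. The count for the list was 3 of 13 with DESeq2, without the mouse as a block, without PBS mouse 9 or without Lef1 or Ccr7 cells, and 4 of 13 without PBS mouse 8, with stricter hashtags or with Havcr2 at 2 or more UMIs.

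Chemokine receptor and residence genes moved in both directions, with 3 of 13 higher and 5 lower. Rgs16, a regulator of G protein signalling, was at 340, 529 and 674 CPM against 160, 213 and 472 CPM (log2 ratio 1.07, edgeR adjusted p = 3.44e-07), and Cxcr6, the receptor for CXCL16, had a log2 ratio of 0.53, as had Rgs1 with 0.52. Cxcr3, the receptor for CXCL9 and CXCL10, was at 22.4, 121 and 187 CPM against 85.2, 210 and 348 CPM (-1.07, edgeR adjusted p = 5.3e-05). The integrin genes Itgb7 (-1.75) and Itgb1 (-0.92), the early activation marker Cd69 (-0.95) and S1pr4 (-0.68) also fell.

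Among killer lectin-like and effector surface genes 1 of 7 rose and 2 fell. Ly6c2, a surface antigen of effector and memory cells, was at 169, 305 and 484 CPM against 432, 694 and 926 CPM (log2 ratio -1.20, edgeR adjusted p = 7.84e-09), and Cd7 had a log2 ratio of -1.36. Plac8 was the member that rose (0.77, 7 of 7 mice). Klrg1 was detected in 22.2% of Havcr2-positive and 6.28% of Havcr2-negative cells, and the fractalkine receptor gene Cx3cr1 in 18.3% and 6.28%; in naive-type cells they were detected in 0.799% and 0.649%.

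Glycolysis genes were higher in 6 of 7 mice: 9 of 15 tested members rose and none fell, with a median log2 ratio of 0.40. The glucose transporter gene Slc2a3 (0.78), Aldoa (0.61), Pgk1 (0.61), Tpi1 (0.56), Ldha (0.54), Pkm (0.53) and Gapdh (0.51) were among them. In LR mouse 3 the list's median was -0.38. With matched UMIs 6 of 15 were called, without the mouse block 4 of 15. Of 16 nuclear-encoded respiratory chain genes 2 rose (Sdhb and Uqcrq, both 0.42), and the list's median was 0.16.

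Interferon response genes were lower, with 8 of 12 tested members falling, none rising and a median log2 ratio of -0.50. Isg15, an interferon-induced ubiquitin-like protein gene, was at 6.48, 30.3 and 96.2 CPM against 25.6, 64.5 and 283 CPM (-1.49, edgeR adjusted p = 3.09e-05). The interferon regulatory factor gene Irf1 was at 109, 151 and 265 CPM against 231, 306 and 373 CPM (-0.89, edgeR adjusted p = 1.38e-05); both were lower in 7 of 7 mice. The list's count depended on the setting: 2 of 9 with matched UMIs, 1 of 7 without Lef1 or Ccr7 cells and 3 of 12 with DESeq2 or without the mouse block. Irf1 was called under each of its 20 alternatives.

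Of 13 heat shock and dissociation genes 5 fell, 4 of them immediate early genes. Jun was at 60.1, 112 and 131 CPM against 134, 253 and 393 CPM without overlap (log2 ratio -1.29, edgeR adjusted p = 1.56e-07), and Fos, Junb and Ier2 had log2 ratios of -1.10, -0.72 and -0.54. The fifth was the heat shock gene Dnajb1 (-0.49). These genes also respond to tissue handling, the part of which was not tested. Of 81 ribosomal protein genes 40 fell (median log2 ratio -0.15) and 1 matched by its name, Rps27l, a p53 target, rose (0.60). Of 13 mitochondrially encoded genes mt-Co1 fell (-0.23).

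The aryl hydrocarbon receptor senses tryptophan catabolites, which the series title names. Of 10 genes of its pathway 3 passed the expression filter and 1 of them, the chaperone gene Hsp90ab1, rose (log2 ratio 0.23; called in 11 of 20 alternatives, and not with matched UMIs). Ahr itself did not pass it and was detected in 8.86% of Havcr2-positive and 5.41% of Havcr2-negative cells (4.69% and 4.06% at 2000 UMIs). The target genes Cyp1a1, Cyp1b1 and Ahrr had no UMI in the Havcr2-positive cells of the 7 mice. Of 13 CREB and cyclic AMP response genes 2 fell and none rose: the phosphodiesterase genes Pde4b (-0.81) and Pde7a (-0.63). The call of Pde7a was lost with matched UMIs (-0.27) and that of Pde4b without Lef1 or Ccr7 cells (-0.35). Crem, a cyclic AMP responsive repressor gene, had a log2 ratio of -0.06 (edgeR adjusted p = 0.923).

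**Figure D3:**
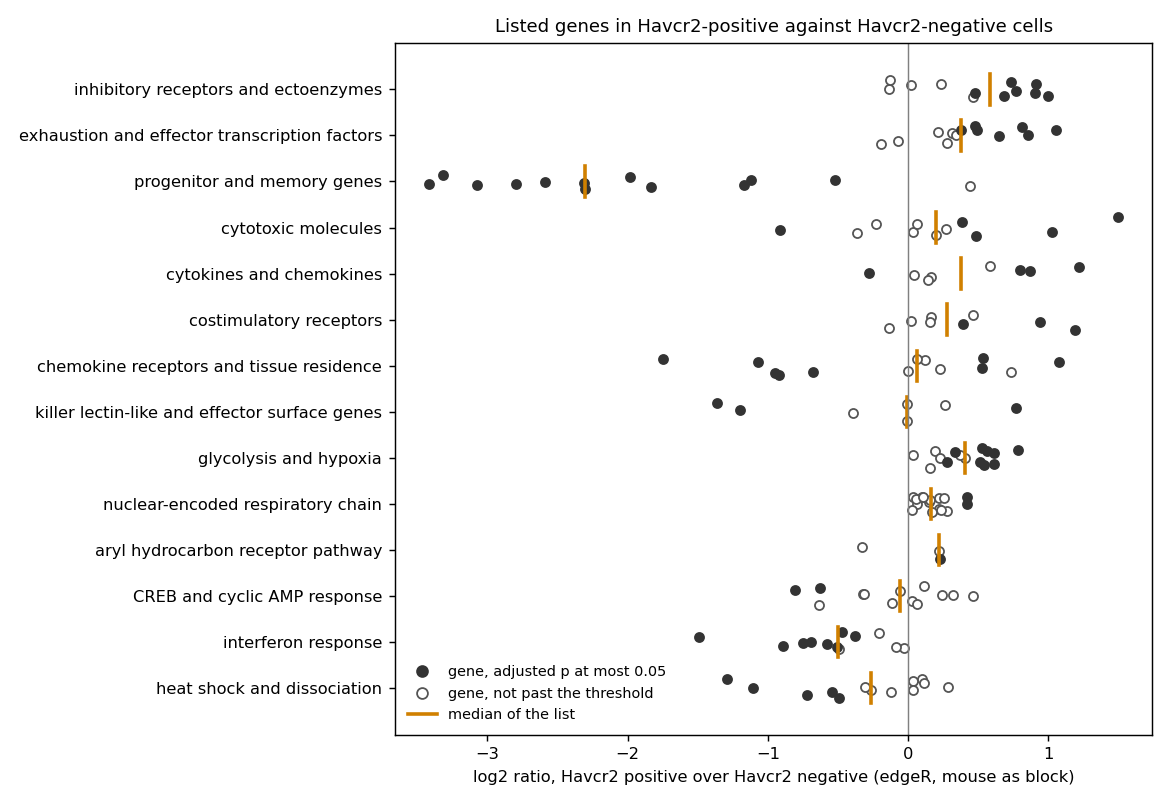
Log2 ratio of each tested gene of 14 lists, Havcr2-positive over Havcr2-negative cells in 7 mice. Filled points passed an adjusted p of 0.05, open points did not, and the orange bar is the list's median; progenitor and memory genes lie furthest to the left (median -2.31) and the inhibitory receptors' median is 0.58.

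Outside the lists, the highest called genes with the same direction in 7 of 7 mice (4.84% of genes tested were higher in every mouse and 6.17% lower) were led by Prr5l, which encodes a binding partner of mTORC2. It was at 45.4, 50.2 and 75.6 CPM against 8.54, 22.3 and 36.2 CPM without overlap (log2 ratio 1.3, edgeR adjusted p = 0.000838). The others were AA467197 (1.19), the serpin genes Serpina3f (1.14) and Serpinb6a (0.90), Gm36723 (1.07), Camk2n1 (0.96), Ergic1 (0.95), the survival gene Bcl2a1d (0.93), Plek (0.91) and Stx11 (0.88), which is needed for cytotoxic granule release. The lowest were Dapl1 (-3.56), Emb (-2.44), Fam241a (-2.37), Igfbp4 (-2.15), Socs3, a feedback inhibitor of cytokine signalling (-2.14), the oxysterol receptor gene Gpr183 (-1.91), Gm2682 (-1.76), Klhl6 (-1.74), Ssh2 (-1.67) and Rgs10 (-1.65). Emb was at 27.4, 75.6 and 111 CPM against 198, 454 and 621 CPM, with no overlap.

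T cell receptor transcripts, which the gate did not use, were concentrated on few beta segments in Havcr2-positive cells. The 5′ libraries read the start of receptor transcripts, so that each cell was given the Trbv (beta variable) segment with most UMIs. The chance that 2 cells of a set shared this segment (unbiased Simpson index) was 37.9%, 48.0%, 55.0% and 22.3% in Havcr2-positive cells of LR mice 1 to 4 and 27.0%, 14.9% and 57.4% in PBS mice 6, 8 and 9. In Havcr2-negative cells of the same mice it was 7.59%, 13.9%, 13.3% and 11.2%, and 19.3%, 6.89% and 11.3%. Havcr2-positive cells were more concentrated in 7 of 7 mice (37.5% ± 16.7 against 11.9% ± 4.18, SD, n = 7; two-sided exact sign-flip permutation p = 0.015625, the smallest that 7 mice allow). In naive-type cells the index was 4.85% to 6.98%. The difference was 25.6 points, and 22.9 points with the sets matched on UMIs.

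**Figure D4:**
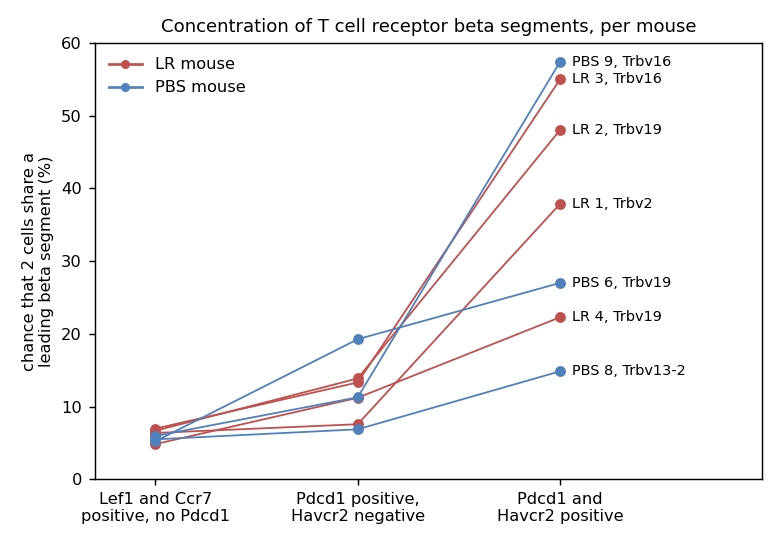
Chance in percent that 2 cells of a set share their leading beta segment, for naive-type, Havcr2-negative and Havcr2-positive cells of each of 7 mice (LR in red, PBS in blue). Labels give each mouse and the leading segment of its Havcr2-positive cells; every line rises from the middle to the right set.

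In Havcr2-positive cells 4 segments led in the 7 mice. Trbv2 led in LR mouse 1 (60.9% of Havcr2-positive cells with a beta segment, 18.3% of Havcr2-negative cells), Trbv19 in LR mouse 2 (66.0% and 31.1%), LR mouse 4 (37.9% and 22%) and PBS mouse 6 (46.9% and 36.6%), and Trbv16 in LR mouse 3 (75.0% and 28%) and PBS mouse 9 (74.1% and 24.8%). Trbv13-2 led in PBS mouse 8 (29.7% and 18.0%). The same segments were also frequent in cells with Pdcd1, Havcr2 and Xcl1 UMIs, with 20% to 53.8% over the 7 mice (median 35.7%). The medians were 60.9% in Havcr2-positive cells, in which the segment was picked, and 24.8% in Havcr2-negative cells. In PBS mouse 8 the Xcl1-positive cells had 35.7%, above the 29.7%. These sets held 5 to 18 cells with a beta segment per mouse. In naive-type cells of all mice these segments had shares of 1.74% (Trbv2), 7.99% (Trbv19), 6.69% (Trbv16) and 8.32% (Trbv13-2).

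The 4 segments are shown because each led among the Havcr2-positive cells of at least 1 mouse. Each line gives the last 60 bases of the germline segment from the GENCODE M21 annotation of GRCm38, 5′ to 3′ on the plus strand, and capitals mark the codon of the conserved cysteine with the 2 codons after it, where the variable part of the receptor (CDR3) begins. The segments lie at chr6:41178375-41179048 (Trbv19), chr6:41151740-41152230 (Trbv16), chr6:41047340-41047995 (Trbv2) and chr6:41121396-41121832 (Trbv13-2).
Trbv19: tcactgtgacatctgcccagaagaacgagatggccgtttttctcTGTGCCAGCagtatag
Trbv16: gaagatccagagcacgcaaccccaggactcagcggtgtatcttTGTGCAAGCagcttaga
Trbv2: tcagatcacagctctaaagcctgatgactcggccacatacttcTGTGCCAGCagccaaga
Trbv13-2: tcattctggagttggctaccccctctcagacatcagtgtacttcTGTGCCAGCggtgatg
Trbv13-2 is 91.2% identical to Trbv13-3, so that reads of these copies may be divided between them and its share is uncertain.

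Within the leading segment, 1 alpha variable segment often prevailed. In LR mouse 1, 20 of 24 Trbv2 cells with an alpha segment had Trav4-4-dv10. In LR mouse 2, 12 of 20 Trbv19 cells had Trav10, and in LR mouse 3, 8 of 9 Trbv16 cells had Trav13-1. In PBS mouse 6, 7 of 9 Trbv19 cells had Trav5-4. LR mouse 4 was more mixed, with Trav6-7-dv9 in 7 of 19 Trbv19 cells, a pair also seen in 12 cells of other mice. Of Havcr2-positive cells with both segments, these pairs made up 48.8%, 37.5%, 61.5% and 11.9% in LR mice 1 to 4. In Havcr2-negative cells the shares were 20.4%, 12.8%, 20% and 8.57%. For PBS mouse 6 they were 33.3% and 35.5%, so that its pair was no more frequent in Havcr2-positive cells. Xcl1-positive cells had 36.4% (4 of 11 cells) in LR mouse 1 and 25% (2 of 8) in PBS mouse 6. None of these pairs was seen in naive-type cells of the same mouse. Of those cells, 186, 56, 27 and 30 in LR mice 1 to 4 and 27 in PBS mouse 6 had both segments. A single pair may be too rare to be seen in so few cells, so that its absence decides nothing. Several alpha segments have near-identical copies and no junction sequence was analysed here, so that a shared pair is not a clone count.

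The comparison with Havcr2-negative cells was repeated inside and outside the leading segment of each mouse, an alternative chosen after seeing the data. LR mouse 3 had fewer than 10 cells in a set of each fit (7 Havcr2-negative inside, 4 Havcr2-positive outside). It was left out of both, unlike in the main fit. Outside it 328 of 2538 genes were called (12.9%), 144 higher (5.67%) and 184 lower (7.25%); progenitor genes fell in 7 of 8 tested, inhibitory receptors rose in 5 of 10 and glycolysis genes in 9 of 14. Among cells that shared the leading segment, 26 of 1512 genes were called (1.72%), 16 higher (1.06%) and 10 lower (0.661%). None of 10 inhibitory receptors was called, which at so low a share over all genes says nothing about these receptors. These 26 included Prf1 (log2 ratio 1.22), Tnfrsf9 (1.04), Irf8 (1.00), Ccl4 (0.97), Plac8 (0.74) and Rgs16 (0.59), which rose, and Cd7 (-1.11), Cxcr3 (-1.01) and Irf1 (-0.80), which fell. Not called there were Lag3 (0.39), Gzmb (0.59), Ifng (0.33), Ly6c2 (-0.43) and Junb (-0.0029). Of the progenitor genes, Klf2 (-0.59, against -2.31 in the main fit) and Bcl2 (-0.49) were not called there, and Il7r and Tcf7 were not tested. The cells with the leading segment are fewer, and the part of cell number and of the missing LR mouse 3 in the lower count was not tested.

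LR and PBS mice were compared within the Havcr2-positive cells, 4 mice against 3. With edgeR 0 of 4666 genes (0%) passed an adjusted p of 0.05, and DESeq2 called 1 gene, Plac8. Among the alternatives, edgeR called Plac8 without the low-count filter, with Havcr2 of at least 2 UMIs and without LR mouse 3, and not in the others. Without the filter, Nr4a1, Vim, Lgals3bp, Prf1 and Trbv13-2 were also called. In the main fit an unadjusted edgeR p under 0.05 was found for 226 genes, about the number that this threshold marks without any difference. In simulated data of this size 59% of genes with a 2-fold change were recovered. Plac8, a cysteine-rich protein gene of effector T cells, was at 873, 1037, 558 and 768 CPM in LR mice and at 421, 342 and 437 CPM in PBS mice (log2 ratio 1.03 ± 0.19, edgeR adjusted p = 0.111). All LR mice lay above all PBS mice. This held for 143 genes (3.06%), and the reverse for 163 (3.49%), together 306 genes (6.56%). With so few mice some genes separate by chance, and how many was not tested.

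Genes were picked by lowest p in each direction among those whose treatments did not overlap, and included some of known function. Vim, the intermediate filament vimentin, was at 1538, 1788, 2085 and 1543 CPM in LR and 1207, 944 and 1127 CPM in PBS mice (log2 ratio 0.66 ± 0.15, edgeR adjusted p = 0.372). Nr4a1, an early target of T cell receptor signalling, was at 6.59, 14.6, 7.64 and 24.3 CPM in LR and 35.5, 60.2 and 69.6 CPM in PBS mice (-1.81 ± 0.41, edgeR adjusted p = 0.312). Ccr7 was at 36.2, 17.1, 30.6 and 32.4 CPM in LR and 65.9, 64.8 and 66.8 CPM in PBS mice (-1.19, edgeR adjusted p = 0.458). The lack of overlap between treatments for these 3 genes follows from that choice, and none passed the threshold in the main fit. Others were Mink1 (log2 ratio 1.32), Lgals3bp (1.07), Pih1d1 (1.54), Wdr74 (-1.51), Cd5 (-0.71) and Trbv13-2 (-2.47), which was the leading segment in PBS mouse 8.

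The marker genes are described here, since with no gene called by edgeR none of them could pass the threshold. Lag3 was at 487, 498, 458 and 584 CPM in LR and 304, 412 and 398 CPM in PBS mice (log2 ratio 0.45 ± 0.16, edgeR adjusted p = 0.892), without overlap. Gzmb was at 949, 1915, 1039 and 1444 CPM against 735, 972 and 919 CPM (0.62, edgeR adjusted p = 0.892). Prf1 was at 418, 376, 428 and 856 CPM against 233, 467 and 228 CPM (0.80, edgeR adjusted p = 0.892), with LR mouse 4 highest and PBS mouse 8 inside the LR range. Mean Ifng was 318 ± 24.6 CPM (SD, n = 4) in LR and 330 ± 52.7 CPM (SD, n = 3) in PBS mice, and mean Tox 246 ± 35.4 and 242 ± 48.4 CPM. Since edgeR called no gene in the main fit, the gene lists could hold no called member, and this says nothing about them in particular.

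**Figure D5:**
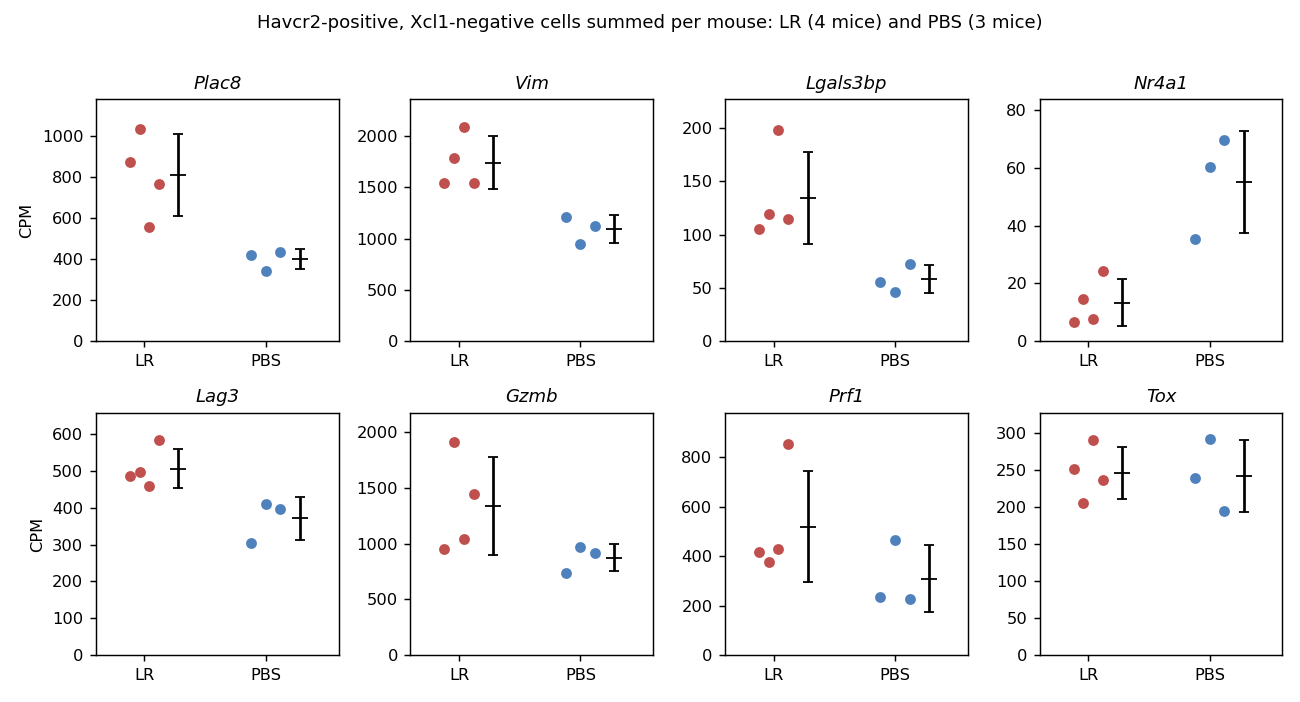
CPM of 8 genes in Havcr2-positive cells summed per mouse, LR (red, 4 mice) and PBS (blue, 3 mice), with mean and SD in black beside the points. Plac8, Vim, Lgals3bp and Nr4a1 were picked among genes whose treatments do not overlap. Lag3 does not overlap either, Gzmb, Prf1 and Tox do, and none passed an edgeR adjusted p of 0.05.

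The difference between Havcr2-positive and Havcr2-negative cells was tested for dependence on treatment. Of 5259 genes 4 (0.0761%) passed: Vim and Trbv14 (0.038%) had a higher ratio in LR mice, and Nrn1 and Trbv29 (0.038%) a lower one. Nrn1, which encodes the membrane protein neuritin, was at 29.1, 86.6, 121 and 138 CPM in Havcr2-positive and 40.2, 102, 104 and 143 CPM in Havcr2-negative cells of LR mice 1 to 4. In PBS mice 6, 8 and 9 it was at 70.6, 187 and 54.6 CPM against 32.3, 34.2 and 15.8 CPM. Its log2 ratios were thus -0.44 to 0.22 in LR and 1.11 to 2.42 in PBS mice (difference -2.01 ± 0.37, edgeR adjusted p = 0.0203).

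For Vim the log2 ratios were 0.38 to 0.84 in LR and -0.16 to 0.13 in PBS mice (difference 0.69 ± 0.13, edgeR adjusted p = 0.021). The difference for Vim was not called in 10 of 15 alternatives (0.50 to 0.79), with matched UMIs among them (0.50, edgeR adjusted p = 0.936). That for Nrn1 was not called in 6 of 15 (-2.60 to -1.62), again with matched UMIs among them (-2.11, edgeR adjusted p = 0.130). Klf2 fell by less in LR mice (-2.03 to -1.35 against -3.53 to -2.74) but did not pass (edgeR adjusted p = 0.0812). DESeq2 called 0 genes, with 24 under an unadjusted p of 0.05, and edgeR called 0 without PBS mouse 8 and 2 without LR mouse 3 or without PBS mouse 9. Trbv29 and Trbv14 were detected in 3.05% and 0.554% of Havcr2-positive cells, and their values are those of receptor segments absent from some mice.

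Cells with Pdcd1, Havcr2 and Xcl1 UMIs (94 cells) were the closest comparison set. Their median depth was 7061 UMIs (median over mice) against 5783.5, and 6 mice had at least 10 cells in both sets. Of 2508 genes 112 (4.47%) were higher and 129 (5.14%) lower in the Xcl1-negative cells, 241 in all (9.61%). With cells matched on UMIs, 87 per set, 11 of 1359 genes were called. Calls numbered 156 without PBS mouse 8 and 111 without PBS mouse 9.

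Gzmb was higher in the Xcl1-negative cells with and without matching. Its mean was 1154 ± 436 CPM (SD, n = 6) in the former and 525 ± 251 CPM in the latter, higher in 6 of 6 mice (log2 ratio 1.16 ± 0.12, edgeR adjusted p = 1.33e-06), and the matched log2 ratio was 0.97. Also higher in 6 of 6 mice, as 7.5% of tested genes were, were Fgl2, a secreted fibrinogen-like protein gene (123 ± 33.5 against 35.4 ± 24.1 CPM, log2 ratio 1.77), Prex1 (1.35), Padi2 (1.11) and Wdr95 (1.09). Prex1 was not called with matched UMIs (1.05), Padi2 with stricter hashtags (1.08), and Wdr95 in 4 of 12 alternatives (0.86 to 1.07 in these 4: no block and without PBS mouse 6, 8 or 9). Fgl2, Padi2 and Wdr95 were too low to be tested with matched UMIs. Gzmk and the chemokine gene Ccl5 were also called with matched UMIs (log2 ratios 0.91 and 0.58).

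Lower in the Xcl1-negative cells was Nrgn, which encodes the calmodulin-binding protein neurogranin. It averaged 252 ± 95.8 CPM in the former and 579 ± 176 CPM in the latter (SD, n = 6, log2 ratio -1.19, edgeR adjusted p = 1.85e-05; matched -1.03). The spermidine synthase gene Srm (-1.46), the RNA methyltransferase gene Nsun2 (-1.40) and the nucleolar gene Mybbp1a (-1.31) were lower in 6 of 6 mice, as were 6.74% of tested genes; Nsun2 was not called with matched UMIs (-1.06), and the other 2 were not tested there. Ccl3 was lower both overall (-1.07) and with matched UMIs (-1.34), and Ccl4 was called with matched UMIs (-1.20). Trbv13-2 was lower (-1.54; matched -2.36).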

How the data were processed

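The authors deposited 1 matrix of raw UMI counts for 32285 genes and 9 hashtags; per the submitters' processing notes it came from Cell Ranger 4.0.0 and GRCm38, and the annotation release is not given in the sources used here. Mice and treatments were read from hashtag names in the deposited feature list, LR being read as L. reuteri; 1 of the 9 hashtags led in no barcode. No barcode occurred more than once. The cells, gene lists and named-gene rule were chosen with earlier results of these data known.

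Of 16969 barcodes 14474 passed the gene and mitochondrial filters, and 10713 of these met the hashtag rule. The hashtag rule removed barcodes whose leading hashtag held less than 80% of the hashtag UMIs. Doublets between mice with a higher leading share can have stayed in. With stricter hashtags (at least 90% and 50 hashtag UMIs) 218 of the 361 Havcr2-positive cells were left. These were 24, 44, 4 and 31 cells in LR mice 1 to 4 and 19, 8, 37 and 51 in PBS mice 6 to 9. Whether the cells lost were doublets was not tested. Scrublet (scanpy 1.11.5, expected rate 0.1) marked 4.16% of the Havcr2-positive and 8.20% of the Havcr2-negative cells, which stayed in. Counts were summed per mouse and set (at least 10 cells) and tested with edgeR 4.0.16 (R 4.3.3, quasi-likelihood, TMM, its expression filter), leaving out the 9 gate genes. The Havcr2-positive sets tested held 127737 to 622035 UMIs. CPM use the TMM-scaled totals of each fit, so that a mouse's value differs slightly between comparisons. Both sets of a mouse come from the same animal, which was therefore a block; LR and PBS mice are not paired. The p-values measure the spread between mice.

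Genes named were a short set always given (Lag3, Entpd1, Prf1, Tcf7, Slamf6, Tox, Gzmb, Ifng, Ccl3, Ccl4, Ahr, Crem and Prdm1), up to 4 called genes per list and 10 per direction outside the lists that moved the same way in every mouse (5 per direction for Xcl1), and for treatment the called genes and the 5 per direction with the lowest p that did not overlap, outside the lists only where 10% or more of cells had a UMI. Other list members and genes named from the leading-segment and matched fits were chosen after their values were seen. Shares have exact (Clopper-Pearson) 95% intervals, which cover counting error only. The tests were checked on simulated data: 94% of genes with a 2-fold change were recovered for Havcr2 and 92% for Xcl1. Alternatives were DESeq2 1.42.0, library totals, no filter, stricter hashtags or genes, Scrublet removal, Havcr2 of at least 2 UMIs, matching on UMIs, no block and leaving out each mouse; added after seeing the data were at least 5 cells per set, removal of Lef1 or Ccr7 cells, and cells inside or outside the leading beta segment. The naive-type cells used as background were also defined after the data were seen, and some genes are not reported here.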

Additional observations from a re-analysis of the deposited data

Results flagged for a closer look

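A mouse was noted where it lay far from the others of its group by Dixon's test. In 103 groups checked 9 values were marked, several of them in the same mouse, and chance marks about 1 group in 20. In PBS mouse 7, with 8 Havcr2-positive cells, the median depth of these cells was 10437 UMIs, above the other PBS mice. Of the log2 ratios between Havcr2-positive and Havcr2-negative cells, Klf3 was nearest to 0 in LR mouse 3 (-1.41), Socs3 also in LR mouse 3 (-0.388) and Lamp1 in PBS mouse 6 (-0.196), while Itgb7 was furthest below 0 in PBS mouse 8 (-3.95) and Rgs10 in PBS mouse 9 (-3.18). The ratio of Fgl2 between Xcl1-negative and Xcl1-positive cells was 6.61 (log2) in PBS mouse 8, where Fgl2 had no UMI in the Xcl1-positive cells, so that this value depends on the prior count and is no bound. Among LR mice, Havcr2-positive cells had 199 CPM of Lgals3bp in mouse 3 and 856 CPM of Prf1 in mouse 4, each above the other 3.

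The ratio of Havcr2-positive over Havcr2-negative cells differed between LR and PBS mice by the interaction test for 4 genes: Trbv29 (-7.83), Trbv14 (7.05), Nrn1 (-2.01) and Vim (0.69, all log2, LR minus PBS). The values of the beta segments rest on mice in which the segment had no UMI in a set, depend on the prior count and are no bound. The hashtag that led in no barcode held 5699 of 20359282 hashtag UMIs.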

How the results depend on the processing

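For Havcr2-positive against Havcr2-negative cells, 560 genes were called, 248 with DESeq2, 358 with stricter hashtags (6 mice), 269 with matched UMIs, 328 outside and 26 inside the leading beta segment, 184 without Lef1 or Ccr7 cells, and 395 to 572 when a mouse was left out. The fits outside and inside the segment lacked LR mouse 3. Without the mouse as a replicate block 356 were called, all among the 560; for Xcl1 the fit without the block called 125 against 241. The Xcl1 comparison gave 60 calls with DESeq2, 159 with stricter hashtags, 11 with matched UMIs and 111 to 260 when a mouse was left out. For LR against PBS, edgeR called 0 genes, DESeq2 1, the fit without a filter 38, stricter hashtags 2, Havcr2 of at least 2 UMIs 1, and leaving out a mouse 0 to 2. The interaction gave 4, with 0 for DESeq2, 13 without a filter, 1 with stricter hashtags, 2 without Scrublet-marked cells and 0 to 5 when a mouse was left out. Share differences ranged from 3.55 to 10.3 points (all gate cells) and 6.90 to 18.3 points (Pdcd1-positive cells) when a mouse was left out, and the beta segment difference from 22.2 to 28.5 points.

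Signs turned for named genes as follows. Havcr2: within the leading segment Cd200r1 (-0.11) and Nfatc1 (-0.020); Crem with mice left out (-0.33 to 0.18), without the block (0.034) and with 5 cells per set (0.054). LR against PBS, none of them called: Tox with library totals (-0.015), stricter hashtags (-0.16), Havcr2 of at least 2 UMIs (-0.13) and mice left out (lowest -0.14, highest 0.17); Ifng with mice left out (-0.16 to 0.055), stricter hashtags (0.065) and 2 Havcr2 UMIs (0.014); Ccl3 (0.35) and Ccl4 (0.020) with stricter hashtags; Prdm1 with library totals (-0.018), mice left out (-0.39 to 0.71), stricter hashtags (-0.064), 2 Havcr2 UMIs (-0.30) and 5 cells per set (-0.0053). The cause of these changes was not tested. Depth limits genes seen in few cells, such as Ahr, and LR against PBS rests on 4 and 3 mice.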
